A study of Homo sapiens with 12 samples.

Results

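The transcripts described here are the long RNAs that host small nucleolar RNAs or microRNAs, together with a few long nuclear RNAs. They were the rows of a gene count table named SNHG followed by a number, named MIR...HG, or named GAS5, NEAT1, MALAT1, EPB41L4A-AS1, ZFAS1 or DANCR. The names matched 77 of 38021 genes, with 21 SNHG, 50 microRNA host and 6 individually named rows. Of these, 17 had 0 counts in all 12 libraries and 14 had 1 to 49 counts in total. The other 46 (20 SNHG, 20 microRNA hosts and the 6 named genes) had a summed count of 50 or more and were compared between groups. The rule used names and this total, and no difference between groups. A filter on low counts passed 45 of the 46, and MIR600HG was the one left out.

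Many small RNAs are cut from longer transcripts. Small nucleolar RNAs, which guide the chemical modification of ribosomal RNA, mostly lie in introns of small nucleolar RNA host genes (SNHG), whose spliced products often carry short open reading frames and are removed by nonsense-mediated decay when they are translated. MicroRNA host genes (named MIR...HG) give primary transcripts from which Drosha and Dicer release microRNAs, and the long nuclear RNAs NEAT1 and MALAT1 build paraspeckles and locate to nuclear speckles, respectively.

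RNA was sequenced from 12 cultures of human clear cell renal carcinoma cells. The line 786O has no functional VHL, the ubiquitin ligase subunit that marks HIF alpha proteins for degradation, and WT8 is a derivative of 786O to which VHL was added. Each line carried a lentiviral shRNA, either a scrambled control (shControl) or one against the circadian transcription factor BMAL1 (shBMAL1), and all cultures were selected and kept in puromycin. The 4 groups, 786O shControl, 786O shBMAL1, WT8 shControl and WT8 shBMAL1, had 3 biological replicates each. Only 1 derivative line with VHL and 1 shRNA against BMAL1 were used, so effects of VHL and BMAL1 cannot be told apart from those of this line and this shRNA. In bulk RNA, fewer cells that make a transcript and less of it per cell cannot be told apart either.

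The small RNAs inside the microRNA hosts show which families the measured host transcripts could feed. Their mature sequences, from RefSeq on GRCh38.p14, are given 5′ to 3′ with the seed (bases 2 to 8, which pair with targets) in capitals. The let-7 seed GAGGUAG occurs in let-7a, which lies in both MIR100HG and MIRLET7BHG, in let-7b of MIRLET7BHG, in let-7c of MIR99AHG and in miR-4458 of MIR4458HG:
hsa-let-7a-5p: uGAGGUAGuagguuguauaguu
hsa-let-7b-5p: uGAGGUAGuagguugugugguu
hsa-let-7c-5p: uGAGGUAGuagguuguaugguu
hsa-miR-4458: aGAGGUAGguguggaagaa
MIR100HG and MIR99AHG are built alike, and each also holds a microRNA with the seed ACCCGUA and a copy of miR-125b:
hsa-miR-100-5p: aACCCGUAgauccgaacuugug
hsa-miR-99a-5p: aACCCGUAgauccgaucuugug
hsa-miR-125b-5p: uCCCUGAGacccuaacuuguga
MIR497HG holds miR-195 and miR-497, which share the seed AGCAGCA, and MIR503HG holds miR-503, whose seed AGCAGCG differs in its last base:
hsa-miR-195-5p: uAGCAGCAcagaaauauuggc
hsa-miR-497-5p: cAGCAGCAcacugugguuugu
hsa-miR-503-5p: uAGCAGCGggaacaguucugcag
MIR17HG is the transcript of the miR-17-92 cluster, in which miR-17 and miR-20a share a seed and miR-19a and miR-92a have others:
hsa-miR-17-5p: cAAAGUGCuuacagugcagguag
hsa-miR-20a-5p: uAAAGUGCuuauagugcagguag
hsa-miR-19a-3p: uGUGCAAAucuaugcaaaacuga
hsa-miR-92a-3p: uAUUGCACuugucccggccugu
The remaining sequences belong to hosts that the results below turn on, with miR-22 in MIR22HG, miR-31 in MIR31HG, miR-155 in MIR155HG, miR-193b and miR-365a in MIR193BHG, miR-210 in MIR210HG and miR-34a in MIR34AHG:
hsa-miR-22-3p: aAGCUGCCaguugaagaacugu
hsa-miR-31-5p: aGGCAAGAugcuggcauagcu
hsa-miR-155-5p: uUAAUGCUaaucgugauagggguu
hsa-miR-193b-3p: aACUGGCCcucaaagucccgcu
hsa-miR-365a-3p: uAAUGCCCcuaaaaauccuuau
hsa-miR-210-3p: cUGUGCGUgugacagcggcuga
hsa-miR-34a-5p: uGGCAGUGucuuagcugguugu
The libraries were made from mRNA, so all values below are of host transcripts and the mature microRNAs were not measured.

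Library totals ran from 33182025 to 36477509 counts, of which the 77 matching rows took 0.0963% to 0.209%. Levels are given as CPM, counts scaled to a common library size. The shRNA target, BMAL1 (listed as ARNTL), had 13.5, 10.8 and 12.03 CPM in 786O shControl, 4.08, 3.68 and 4.05 in 786O shBMAL1, 9.02, 10.3 and 8.40 in WT8 shControl, and 1.49, 1.93 and 1.55 in WT8 shBMAL1, and VHL had 17.6, 20.6 and 18.2 CPM in 786O shControl, 18.4, 18.5 and 21.3 in 786O shBMAL1, 1006, 916 and 1020.0 in WT8 shControl, and 661, 631 and 648 in WT8 shBMAL1. ARNTL was lower with shBMAL1 in both lines, and VHL was higher in WT8 than in 786O, as labelled. Of the renal and epithelial markers, PAX8, PAX2, VIM, KRT8 and KRT18 were present in every library, and their levels moved with the groups. Between the lines under shControl, PAX8 differed by 2.09 on the log2 scale, PAX2 by 0.88, KRT18 by 0.91, KRT8 by -0.27 and VIM, which is also a mesenchymal marker, by -1.20. With shBMAL1 in WT8 these 5 fell, KRT18 furthest (-0.84) and VIM least (-0.10), while in 786O PAX8, KRT8 and KRT18 rose (0.16, 0.41 and 0.50), PAX2 fell (-0.31) and VIM was not called (-0.069). Of 6 markers of leukocytes and endothelium, CD3E was at 0 in every library and PTPRC in 11 of 12, and the 5 other than CD68 summed to at most 0.373 CPM in a 786O library and to 0.957 to 1.47 CPM in WT8 shControl and 0.292 to 0.749 CPM in WT8 shBMAL1. With CD68, which macrophages and many carcinoma lines express, the sum of the 6 was 41.3 to 43.2 CPM in 786O shControl, 31.7 to 36.3 CPM in 786O shBMAL1, 26.3 to 32.6 CPM in WT8 shControl and 18.05 to 22.3 CPM in WT8 shBMAL1. The part of these markers in the results was not tested.

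In the control cells the hosts with the highest level per canonical transcript length were small nucleolar RNA hosts and MIR4435-2HG. Divided by the length of the canonical GENCODE transcript, the highest mean level in 786O shControl was that of SNHG16 (116 CPM per kb), followed by MIR4435-2HG (87.1), SNHG5 (81.5), SNHG19 (56.9) and SNHG1 (53.4). In WT8 shControl the order began with MIR4435-2HG (243 CPM per kb), SNHG16 (189.8) and SNHG19 (139.6). NEAT1 and MALAT1, which are long, stood at 4.03 and 3.18 CPM per kb in 786O shControl. The expressed isoforms were not determined, so this order depends on the length used, such as 498 bases for SNHG16 and 4526 for ZFAS1. Before division by length, ZFAS1 had the higher mean in 786O shControl, 64.3 CPM against 58.0 for SNHG16. Summed over each class, the 24 small nucleolar RNA hosts (20 SNHG with GAS5, ZFAS1, DANCR and EPB41L4A-AS1) had 800.5 ± 33.4 CPM (SD, n = 3) in 786O shControl and 1262 ± 38.01 CPM in WT8 shControl, and their sums did not overlap between the lines. The 20 microRNA hosts summed to 158.6 ± 8.69 and 384 ± 5.05 CPM in the same groups. The largest terms were MIR4435-2HG (means of 74.7 and 208 CPM) and MIR22HG (20.4 and 119 CPM). The rise of this sum lay in these hosts, and not in the class as a whole.

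**Figure D1:**
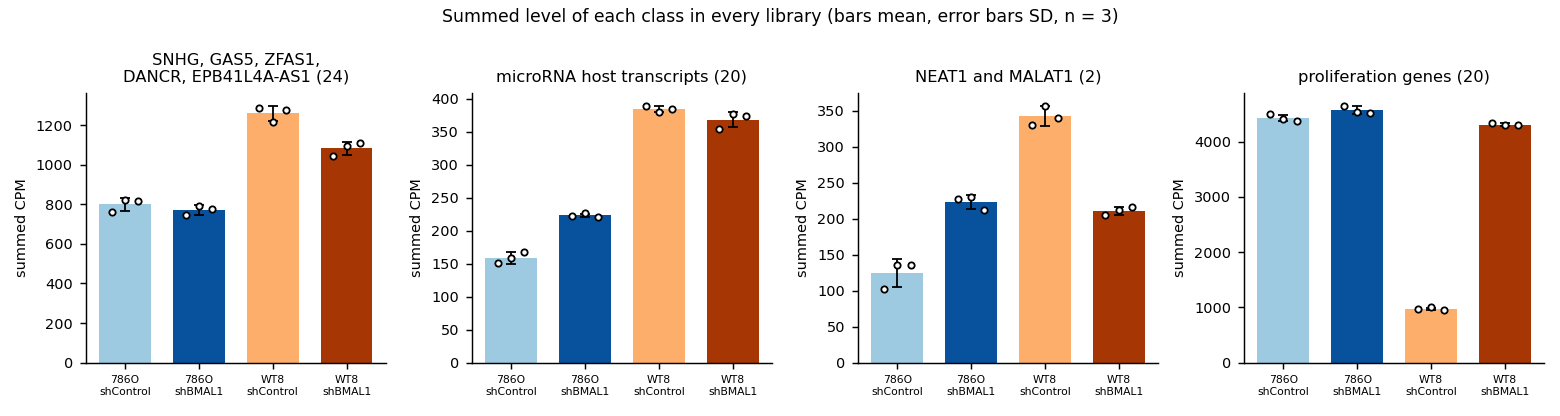
Summed level in CPM (vertical axes, linear and from 0) of 24 small nucleolar RNA host transcripts, 20 microRNA hosts, NEAT1 with MALAT1, and 20 proliferation genes, by group (horizontal axes). Bars are means, error bars SD and points the 3 libraries. The sums of the 3 transcript classes were highest in WT8 shControl, where that of the proliferation genes was lowest at 953 to 997 CPM. MIR4435-2HG and MIR22HG made up most of the microRNA host sum in WT8 shControl.

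WT8 cells had more of most host transcripts than 786O cells under the control shRNA. This comparison shows how the line with VHL differs from the line without it. Of 45 host transcripts tested, 39 were called (adjusted p under 0.1, edgeR quasi-likelihood test with Benjamini-Hochberg adjustment over 16838 genes), 31 higher and 8 lower in WT8. Of all genes, 79.5% were called, 39.3% higher and 40.1% lower, against 68.9% and 17.8% of the host transcripts. The libraries of the groups did not overlap for 31 host transcripts above and 8 below, against 38.2% and 39.3% of all genes (77.5% together). Differences of more than 2-fold were called for 21 of the 45, where 32.1% of all genes had one. The median log2 difference was 0.65 over the host transcripts and 0.00076 over all genes, and the proliferation genes, described below, lay lower in WT8 in 20 of 20 cases. Scaling by library totals alone raised the median of all genes in this comparison by 0.118 on the log2 scale.

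Among the small nucleolar RNA hosts, 21 of 24 were higher in WT8 and 1 lower (87.5% and 4.17%, against 39.3% and 40.1% of all genes). ZFAS1 (chromosome 20, 47894715 to 47916137, plus strand, GRCh37, GENCODE), which hosts the SNORD12 family, had 60.01, 64.5 and 68.3 CPM in 786O shControl and 149.9, 162 and 152 in WT8 shControl. All WT8 libraries were above all 786O libraries, a difference of more than 2-fold (log2 1.27, SE 0.055, adjusted p 3.38e-21). DANCR (chromosome 4, 53578492 to 53589790, plus strand), named for its block of differentiation, had 21.8, 27.4 and 25.1 CPM in 786O shControl and 64.3, 57.00 and 65.7 in WT8 shControl (log2 1.33, SE 0.070, adjusted p 7.25e-19), and EPB41L4A-AS1, the host of SNORA13, had 13.3, 12.3 and 12.4 CPM in 786O shControl and 28.7, 28.7 and 30.4 in WT8 shControl (log2 1.21, SE 0.082, adjusted p 1.30e-15). Neither gene's groups overlapped. SNHG15, a short-lived transcript, had 29.2, 28.9 and 29.6 CPM in 786O shControl and 78.9, 67.6 and 73.5 in WT8 shControl (log2 1.33, SE 0.063, adjusted p 4.05e-20), SNHG17, host of the SNORA71 family, differed by 1.31 and SNHG19, host of SNORD60, by 1.29. GAS5 (chromosome 1, 173827697 to 173838020, minus strand), the host of many box C/D small nucleolar RNAs that accumulates in growth arrest, showed a smaller difference, with 25.4, 30.9 and 27.5 CPM in 786O shControl and 40.6, 41.4 and 40.8 in WT8 shControl (log2 0.55, SE 0.071, adjusted p 1.44e-08). SNHG4, SNHG20, SNHG8, SNHG9, SNHG16, SNHG11, SNHG3, SNHG10, SNHG6, SNHG18 and SNHG21 were also higher, by 0.37 to 1.17 on the log2 scale, and SNHG1 by 0.25 (adjusted p 1.33e-04). SNHG5 and SNHG12 did not pass the test, at 100.4, 106 and 115 CPM in 786O shControl and 120.3, 109 and 108 in WT8 shControl and at 22.6, 26.4 and 23.97 CPM in 786O shControl and 24.7, 23.8 and 26.7 in WT8 shControl, so their groups overlapped (log2 0.066 and 0.045). SNHG22 was the one lower in WT8, with only 6, 5 and 11 counts in 786O shControl and 3, 0 and 4 in WT8 shControl, and its call was lost without 786O shControl replicate 3 or WT8 shControl replicate 2 (log2 -1.26 to -1.12). The calls of SNHG7 and SNHG25 were also lost without 1 library, SNHG7 without 786O shControl replicate 3 (log2 0.076), and SNHG25, which had 7 to 23 counts a library in the shControl groups, without any one of 10 of the libraries (log2 0.65 to 0.89). The SNHG25 call was also lost under other low-count filters, DESeq2, halved counts and the replicate block.

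The microRNA hosts went both ways, 8 of 19 higher in WT8 and 7 lower (42.1% and 36.8%, near the 39.3% and 40.1% of all genes). MIR22HG (chromosome 17, 1614741 to 1620468, minus strand) had the largest rise of any host transcript, with 18.7, 22.2 and 20.3 CPM in 786O shControl and 120.2, 117 and 119.5 in WT8 shControl (log2 2.54, SE 0.061, adjusted p 3.39e-29). MIR4435-2HG had 71.6, 70.9 and 81.5 CPM in 786O shControl and 213, 204 and 208 in WT8 shControl (log2 1.48, SE 0.049, adjusted p 9.79e-25). MIR17HG and MIRLET7BHG were 0.86 and 1.31 higher on the log2 scale, MIR4458HG 1.24 and MIR181A2HG 1.52. On the other side stood MIR100HG (chromosome 11, 121899033 to 122427429, minus strand), which was undetected in WT8 shControl with 0 counts in each of 3 libraries and had 269, 206 and 263 counts in 786O shControl. Set against a floor of 3 counts a library, it was at least 84.8-fold lower in WT8. MIR924HG had 25, 28 and 36 counts in 786O shControl and 0 in all 6 WT8 libraries, at least 10.2-fold lower. MIR34AHG, the host of the p53-induced miR-34a, had 4.43, 8.21 and 8.90 CPM in 786O shControl and 1.03, 1.28 and 1.17 in WT8 shControl (log2 -2.63, SE 0.23, adjusted p 6.65e-11), and the 786O group itself was wide. MIR762HG, MIR210HG and MIR31HG were lower by smaller amounts, with differences of -0.69 (adjusted p 1.01e-05), -0.64 (adjusted p 3.50e-04) and -0.53 (adjusted p 4.98e-04) on the log2 scale, and MIR99AHG, the host built like MIR100HG, had 20, 9 and 20 counts against 8, 4 and 1. MIR155HG did not pass the test, at 5.92, 5.75 and 5.35 CPM in 786O shControl and 6.09, 6.56 and 5.66 in WT8 shControl (log2 0.10), nor did MIR193BHG, MIR503HG and MIR3142HG (0.19, -0.32 and -0.55). The calls of MIR497HG and MIRLET7DHG rested on single libraries and were lost without 786O shControl replicate 1 or 786O shControl replicate 3 (log2 0.15 to 0.20) and 786O shControl replicate 1 (log2 0.74), respectively.

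Both nuclear RNAs were higher in WT8. The mRNA libraries were counted per gene, so isoforms of NEAT1 and MALAT1 were not told apart. How fully these libraries captured each isoform was not measured. NEAT1 (chromosome 11, 65190245 to 65213011, plus strand), the scaffold of paraspeckles, had 71.9, 102 and 101 CPM in 786O shControl, 169, 172 and 158 in 786O shBMAL1, 236, 244 and 243 in WT8 shControl, and 130.3, 129 and 132 in WT8 shBMAL1. MALAT1 (chromosome 11, 65265111 to 65275544, plus strand) had 30.5, 34.3 and 34.7 CPM in 786O shControl, 58.4, 58.3 and 52.98 in 786O shBMAL1, 94.1, 113 and 97.5 in WT8 shControl, and 74.3, 83.2 and 83.3 in WT8 shBMAL1. Under shControl the lines did not overlap for either gene, with a difference of 1.39 for NEAT1 (SE 0.11, adjusted p 1.01e-06) and 1.61 for MALAT1 (SE 0.067, adjusted p 3.86e-20) on the log2 scale.

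**Figure D2:**
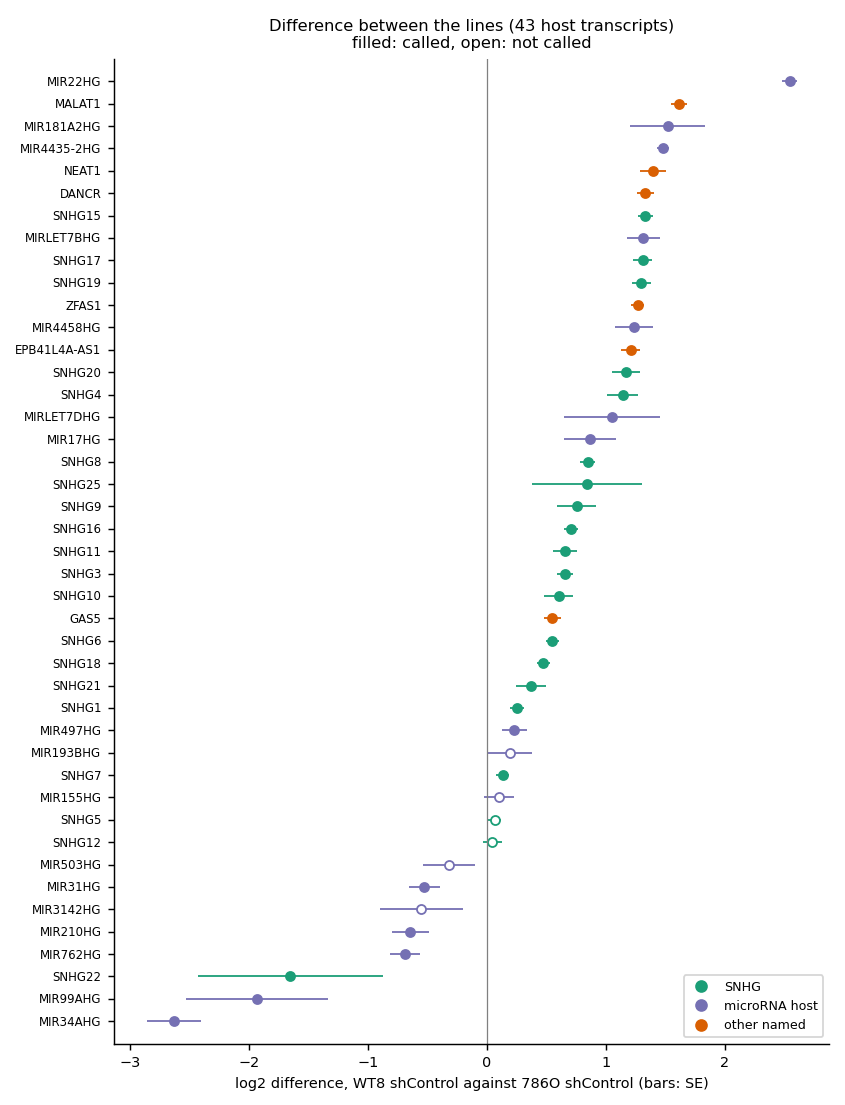
Log2 difference between WT8 shControl and 786O shControl (horizontal axis) for 43 host transcripts (vertical axis, ordered by the difference), with SE as bars. Filled points were called, open points were not. MIR22HG stood highest at 2.54 and MIR34AHG lowest at -2.63, and MIR100HG and MIR924HG are left out because they had 0 counts in WT8 shControl.

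In 786O cells, the share of host transcripts called with shBMAL1 was near that of all genes. The nuclear RNAs and several microRNA hosts rose, and some small nucleolar RNA hosts fell by small amounts. This comparison asks which host transcripts depend on BMAL1 where VHL is absent. Of 45 tested, 19 were called, 11 higher and 8 lower, against a background of 48.9% called among all genes (24.5% higher, 24.4% lower), beside 42.2% of the host transcripts. The groups did not overlap for 11 of the 45 above and 9 below (50.9% of all genes, 25.7% above and 25.2% below). Changes of more than 2-fold were called for 2 of the 45 (6.82% of all genes). The median log2 change was 0.11, and 0.00075 over all genes.

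Of the 19 microRNA hosts, 7 rose and 1 fell (36.8% and 5.26%, against 24.5% and 24.4% of all genes). MIR31HG (chromosome 9, 21380072 to 21559890, minus strand) had 5.08, 4.92 and 5.29 CPM in 786O shControl and 15.4, 15.5 and 17.2 in 786O shBMAL1, a rise of more than 3-fold without overlap (log2 1.66, SE 0.12, adjusted p 3.06e-14). MIR100HG had 7.85, 5.89 and 7.48 CPM in 786O shControl and 18.6, 18.9 and 18.1 in 786O shBMAL1 (log2 1.39, SE 0.12, adjusted p 1.18e-11). Both hosts were thus highest in 786O shBMAL1 of all 4 groups. MIR193BHG rose as well, with 2.54, 2.49 and 3.13 CPM in 786O shControl and 5.00, 4.95 and 4.48 in 786O shBMAL1 (log2 0.82, SE 0.18, adjusted p 3.05e-04), as did MIR155HG (chromosome 21, 26934122 to 26947480, plus strand), the host of a microRNA of immune cells, which had 5.92, 5.75 and 5.35 CPM in 786O shControl, 9.82, 10.9 and 8.96 in 786O shBMAL1, 6.09, 6.56 and 5.66 in WT8 shControl, and 2.87, 3.34 and 3.72 in WT8 shBMAL1 (log2 0.80, SE 0.12, adjusted p 1.35e-06 in 786O). MIR22HG had 18.7, 22.2 and 20.3 CPM in 786O shControl and 27.3, 28.2 and 26.4 in 786O shBMAL1 (log2 0.42, SE 0.063, adjusted p 1.19e-06), and MIR4435-2HG had 71.6, 70.9 and 81.5 CPM in 786O shControl and 102, 102 and 103 in 786O shBMAL1, again without overlap. MIRLET7BHG had 3.501, 3.63 and 3.13 CPM in 786O shControl and 4.31, 4.98 and 4.05 in 786O shBMAL1, a rise of 0.38 on the log2 scale and a call that was lost without 786O shControl replicate 3 or 786O shBMAL1 replicate 2 (log2 0.28 to 0.31). MIR497HG was the only microRNA host called lower (log2 -0.26, SE 0.11, adjusted p 0.0467), and that call was lost without 786O shControl replicate 2 or 786O shBMAL1 replicate 3 (log2 -0.25 to -0.16). MIR210HG, the host of the hypoxia-induced miR-210, had 5.81, 5.95 and 5.49 CPM in 786O shControl, 5.40, 5.44 and 5.06 in 786O shBMAL1, 3.72, 3.71 and 3.59 in WT8 shControl, and 1.06, 0.562 and 0.589 in WT8 shBMAL1, and MIR17HG had 1.20, 1.52 and 1.45 CPM in 786O shControl, 1.03, 1.18 and 1.03 in 786O shBMAL1, 2.47, 2.76 and 2.37 in WT8 shControl, and 1.67, 2.25 and 1.63 in WT8 shBMAL1. Neither passed the test in 786O (log2 -0.12 and -0.36).

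NEAT1 and MALAT1 rose in 786O with shBMAL1, without overlap between the groups (log2 0.86, SE 0.11, adjusted p 1.35e-04 for NEAT1 and log2 0.77, SE 0.068, adjusted p 6.25e-11 for MALAT1). The 786O shControl libraries of NEAT1 were themselves uneven, at 71.9, 102 and 101 CPM. With shBMAL1 the 786O cells still had less of both RNAs than WT8 shControl.

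Of the 24 small nucleolar RNA hosts, 7 fell and 2 rose in 786O (29.2% and 8.33%, against 24.4% and 24.5% of all genes). The share that fell was thus near that of all genes. GAS5 had 25.4, 30.9 and 27.5 CPM in 786O shControl and 20.7, 21.8 and 21.4 in 786O shBMAL1 (log2 -0.39, SE 0.074, adjusted p 3.86e-05), and SNHG5, the host of the SNORD50 family, had 100.4, 106 and 115 CPM in 786O shControl and 81.5, 84.3 and 86.8 in 786O shBMAL1 (log2 -0.35, SE 0.055, adjusted p 2.21e-06). In both genes each shBMAL1 library lay below each shControl library. SNHG10, host of SCARNA13, fell (log2 -0.39, SE 0.13, adjusted p 0.016), and SNHG18, host of SNORD123, had 47.96, 50.6 and 53.1 CPM in 786O shControl and 39.8, 39.8 and 38.7 in 786O shBMAL1 and fell by 0.36 on the log2 scale (SE 0.056, adjusted p 2.39e-06). SNHG12, SNHG17 and SNHG3 had smaller decreases (log2 -0.22, -0.18 and -0.16) that each hung on single libraries. The SNHG12 call was lost without 786O shControl replicate 2 or 786O shBMAL1 replicate 3 (log2 -0.18 to -0.16), the SNHG17 call without 786O shControl replicate 2, 786O shControl replicate 3, 786O shBMAL1 replicate 1 or 786O shBMAL1 replicate 3 (log2 -0.17 to -0.14) and the SNHG3 call without 786O shControl replicate 2, 786O shControl replicate 3 or 786O shBMAL1 replicate 1 (log2 -0.16 to -0.090). With library totals alone or with DESeq2 the calls of SNHG17 and SNHG3 were also lost, and with limma-voom that of SNHG17. SNHG15 and SNHG16 were the ones that rose, SNHG15 with 29.2, 28.9 and 29.6 CPM in 786O shControl and 33.6, 37.5 and 34.9 in 786O shBMAL1 (log2 0.27, SE 0.065, adjusted p 7.25e-04) and SNHG16 with 56.3, 57.7 and 59.97 CPM in 786O shControl and 69.00, 60.6 and 69.2 in 786O shBMAL1. ZFAS1, DANCR, EPB41L4A-AS1 and SNHG1 did not pass the test, with log2 changes of -0.026, 0.14, 0.15 and 0.010.

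**Figure D3:**
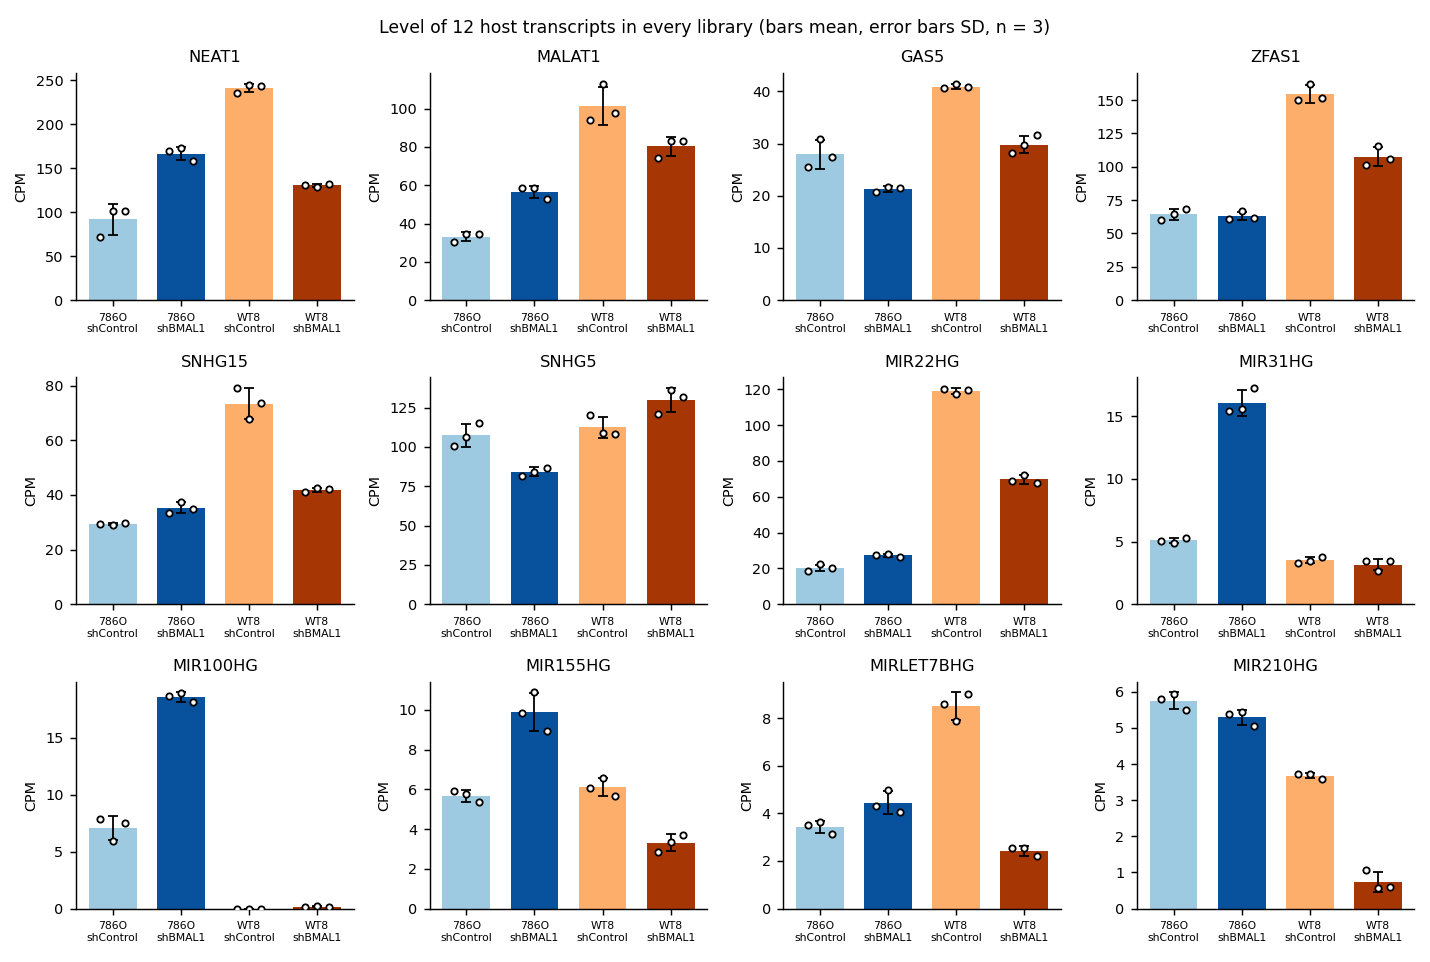
Level in CPM (vertical axes, linear and from 0) of 12 host transcripts in each library, by group (horizontal axes). Bars are means, error bars SD and open points the 3 libraries. NEAT1, MALAT1, MIR22HG, MIR155HG, MIRLET7BHG and SNHG15 rose with shBMAL1 in 786O and fell in WT8, MIR31HG and MIR100HG were highest in 786O shBMAL1, and MIR210HG was lowest in WT8 shBMAL1.

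In WT8 cells, shBMAL1 lowered most of the host transcripts. Here 34 of 45 were called, 6 higher and 28 lower, which is 13.3% and 62.2% of them. Among all genes 69.8% were called, 32.9% higher and 36.9% lower. Groups did not overlap for 6 of the 45 host transcripts above and 29 below (67.6% of all genes, 31.6% above and 36% below). Changes of more than 2-fold were called for 8 of the 45 (20.5% of all genes). The median log2 change was -0.36 over the host transcripts, -0.37 over the 44 left when MIR924HG is dropped and MIR100HG is set at its bound, and -0.043 over all genes. Beside these decreases, 20 of 20 proliferation genes rose with shBMAL1 in WT8. VHL itself fell without overlap, from a mean of 981 to 647 CPM (log2 -0.60, SE 0.049, adjusted p 6.78e-13). The part of either in the decreases was not tested. The differences between the lines and the changes here share the WT8 shControl libraries, so they are not independent findings. Of the host transcripts, 21 were called higher in WT8 under shControl and lower with shBMAL1 in WT8. What the level of the WT8 shControl libraries contributed to both was not tested.

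The microRNA hosts had the largest decreases, with 12 of 19 lower (63.2%, against 36.9% of all genes). MIR210HG (chromosome 11, 565657 to 568457, minus strand) fell furthest, from 137, 128 and 132 counts in WT8 shControl to 40, 21 and 22 in WT8 shBMAL1 (log2 -2.31, SE 0.20, adjusted p 1.68e-12). MIRLET7BHG (chromosome 22, 46449749 to 46509808, plus strand) had 8.59, 7.89 and 9.03 CPM in WT8 shControl and 2.53, 2.54 and 2.19 in WT8 shBMAL1 (log2 -1.81, SE 0.14, adjusted p 1.43e-13). MIR503HG had 1.71, 2.67 and 2.34 CPM in WT8 shControl and 0.585, 0.695 and 0.830 in WT8 shBMAL1 (log2 -1.66, SE 0.26, adjusted p 6.36e-07) and MIR193BHG had 2.77, 3.36 and 3.18 CPM in WT8 shControl and 1.78, 1.04 and 1.02 in WT8 shBMAL1 (log2 -1.27, SE 0.20, adjusted p 1.19e-06). The groups overlapped for none of these hosts. MIR155HG (log2 -0.88, SE 0.13, adjusted p 4.58e-07) and MIR22HG (log2 -0.77, SE 0.055, adjusted p 9.82e-15) also fell without overlap. MIR4458HG, MIR181A2HG, MIRLET7DHG, MIR3142HG and MIR34AHG fell by 0.57, 0.86, 1.38, 1.06 and 0.74 on the log2 scale. The last 4 had at most 84 counts in a WT8 library, and 3 of these calls were lost without 1 library, MIR181A2HG without WT8 shControl replicate 3 (log2 -0.61), MIR3142HG without WT8 shBMAL1 replicate 2 (log2 -0.72) and MIR34AHG without WT8 shControl replicate 2 or WT8 shBMAL1 replicate 1 (log2 -0.66 to -0.45). The MIR17HG decrease (log2 -0.45, SE 0.21, adjusted p 0.06) was lost without WT8 shControl replicate 2, WT8 shBMAL1 replicate 1 or WT8 shBMAL1 replicate 3 (log2 -0.39 to -0.36), and also without the low-count filter. That of MIR34AHG was also lost with limma-voom and with halved counts.

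A few microRNA hosts rose in WT8 or did not pass the test. MIR497HG had 9.79, 9.92 and 10.03 CPM in WT8 shControl and 13.1, 15.03 and 15.02 in WT8 shBMAL1 (log2 0.54, SE 0.10, adjusted p 1.40e-05), so this host of miR-195 and miR-497 rose where MIR503HG, whose microRNA has nearly the same seed, fell. MIR4435-2HG had 213, 204 and 208 CPM in WT8 shControl and 246, 263 and 264 in WT8 shBMAL1 (log2 0.31, SE 0.047, adjusted p 6.50e-07). MIR100HG went from 0 counts in all 3 WT8 shControl libraries to 6, 8 and 4 counts with shBMAL1, at least 1.92-fold higher against the 3-count floor, which is far below its level in either 786O group. MIR31HG had 3.32, 3.48 and 3.81 CPM in WT8 shControl and 3.43, 2.65 and 3.45 in WT8 shBMAL1 and did not pass the test (log2 -0.15).

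NEAT1 and MALAT1 fell in WT8 with shBMAL1, again without overlap (log2 -0.89, SE 0.11, adjusted p 4.45e-05 for NEAT1 and log2 -0.34, SE 0.063, adjusted p 2.46e-05 for MALAT1). NEAT1 ended between its 2 levels in 786O, with a mean of 130.4 CPM in WT8 shBMAL1 against 91.7 in 786O shControl and 167 in 786O shBMAL1. Means of MALAT1 were 80.3, 33.2 and 56.5 CPM in the same groups, so its mean was higher in WT8 than in both 786O groups.

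Of the 24 small nucleolar RNA hosts, 14 fell and 3 rose in WT8 (58.3% and 12.5%, against 36.9% and 32.9% of all genes). SNHG17 had 46.8, 43.5 and 50.3 CPM in WT8 shControl and 23.3, 24.9 and 27.3 in WT8 shBMAL1 (log2 -0.90, SE 0.075, adjusted p 7.04e-13), and SNHG15 had 78.9, 67.6 and 73.5 CPM in WT8 shControl and 40.99, 42.4 and 42.2 in WT8 shBMAL1 (log2 -0.81, SE 0.061, adjusted p 5.12e-14). Both lost more than 1.5-fold of their level, and neither gene's groups overlapped. EPB41L4A-AS1 (log2 -0.73, SE 0.079, adjusted p 4.22e-10) and SNHG19 (52.5, 55.96 and 56.5 CPM in WT8 shControl and 36.7, 31.4 and 31.8 in WT8 shBMAL1) fell nearly as far, followed by SNHG12 (log2 -0.63, SE 0.081, adjusted p 1.76e-08). SNHG7 had 105, 106 and 94.6 CPM in 786O shControl, 99.9, 117 and 111 in 786O shBMAL1, 114, 106 and 114 in WT8 shControl, and 76.04, 75.2 and 74.9 in WT8 shBMAL1, so its WT8 shBMAL1 libraries lay below all others (log2 -0.57, SE 0.054, adjusted p 2.24e-11). ZFAS1 had 149.9, 162 and 152 CPM in WT8 shControl and 101, 116 and 106 in WT8 shBMAL1 (log2 -0.52, SE 0.054, adjusted p 1.26e-10), and GAS5 had 40.6, 41.4 and 40.8 CPM in WT8 shControl and 28.2, 29.7 and 31.6 in WT8 shBMAL1 (log2 -0.46, SE 0.071, adjusted p 6.79e-07). SNHG3, SNHG11 and SNHG18 fell by 0.38, 0.34 and 0.18 on the log2 scale. The smaller decreases of SNHG21, SNHG8 and SNHG9 were lost without WT8 shControl replicate 1 or WT8 shBMAL1 replicate 2 (log2 -0.27 to -0.24), without WT8 shBMAL1 replicate 1 or WT8 shBMAL1 replicate 2 (log2 -0.12 to -0.10) and without WT8 shControl replicate 2 or WT8 shBMAL1 replicate 2 (log2 -0.31 to -0.18), respectively. The 3 that rose were SNHG5 (log2 0.21, SE 0.054, adjusted p 0.00108), SNHG16 (log2 0.21, SE 0.061, adjusted p 0.00367) and SNHG22, which had 3, 0 and 4 counts in WT8 shControl and 6, 7 and 17 in WT8 shBMAL1 and lost its call without WT8 shControl replicate 2 or WT8 shBMAL1 replicate 3 (log2 1.38 to 1.46). DANCR and SNHG1 did not pass the test (log2 0.075 and 0.076), and DANCR thus kept a level of 65.7 CPM in WT8 shBMAL1, against 27.3 CPM in 786O shBMAL1.

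Set side by side, the changes with shBMAL1 in the lines pointed in opposite directions for 9 host transcripts. The lines share no library in this comparison. In all, 17 of 45 (37.8%) were called in both lines, where 38.1% of all genes were. Of these, 7 rose in 786O and fell in WT8 (NEAT1, MALAT1, MIR22HG, MIR155HG, MIR193BHG, MIRLET7BHG and SNHG15), and 2 did the reverse (SNHG5 and MIR497HG). Opposite calls made up 20% of the host transcripts and 12.1% of all genes. In the same direction, 5 fell in both lines (GAS5, SNHG3, SNHG12, SNHG17 and SNHG18) and 3 rose (MIR4435-2HG, SNHG16 and MIR100HG). These are 11.1% and 6.67% of the host transcripts, against 13.6% and 12.4% of all genes. The 786O calls of SNHG3, SNHG12, SNHG17, MIRLET7BHG and MIR497HG, counted here, were each lost when single libraries were left out. Another 2, MIR31HG and SNHG10, were called in 786O alone and 17 in WT8 alone, and 9 in neither line (DANCR, SNHG1, SNHG4, SNHG6, SNHG20, SNHG25, MIR762HG, MIR924HG and MIR99AHG).

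A test of the difference itself, the interaction of shBMAL1 with the line (the log2 change in WT8 minus that in 786O), called 31 of 45 host transcripts, 26 with the lower and 5 with the higher change in WT8. Among all genes 56% were called, 28.6% lower and 27.4% higher, against 57.8% and 11.1% of the host transcripts. The test uses the same libraries as the comparisons above, WT8 shControl among them, so it is not independent of them. The difference was called and more than 2-fold for 14 of the 45 host transcripts and for 17.4% of all genes. The 5 higher ones were SNHG5, SNHG6, SNHG18, MIR497HG and MIR100HG, whose fitted value is no bound because of its 0 counts in WT8 shControl. The largest negative differences were those of MIR210HG (log2 -2.19, SE 0.25, adjusted p 3.56e-09), MIRLET7BHG (log2 -2.19, SE 0.20, adjusted p 2.21e-11) and MIR193BHG (log2 -2.10, SE 0.27, adjusted p 4.21e-08), followed by MIR31HG (log2 -1.81, SE 0.18, adjusted p 1.08e-10) and NEAT1 (log2 -1.75, SE 0.15, adjusted p 5.93e-06). These 5 reached them in different ways. MIR210HG fell in WT8 and was not called in 786O, MIR31HG rose in 786O and was not called in WT8, and the other 3 rose in one line and fell in the other. MIR155HG (log2 -1.68, SE 0.18, adjusted p 6.79e-10), MIR22HG (log2 -1.19, SE 0.084, adjusted p 1.48e-14), MALAT1 (log2 -1.10, SE 0.093, adjusted p 9.63e-12) and SNHG15 (log2 -1.08, SE 0.089, adjusted p 9.52e-13) also differed between the lines. EPB41L4A-AS1 (-0.88), ZFAS1 (-0.50) and SNHG12 (-0.41) had smaller negative differences on the log2 scale, and MIR497HG (log2 0.80, SE 0.15, adjusted p 1.97e-05) and SNHG5 (log2 0.56, SE 0.077, adjusted p 1.50e-07) had positive ones. For GAS5, DANCR, SNHG1 and MIR17HG no difference between the lines was called (log2 -0.064, -0.063, 0.066 and -0.093). The calls of 9 host transcripts were lost without 1 library. SNHG18, called at 0.18, lost its call without 786O shControl replicate 3 or WT8 shControl replicate 2 (log2 0.15 to 0.16) and SNHG9, called at -0.57, without 786O shBMAL1 replicate 2 or WT8 shBMAL1 replicate 2 (log2 -0.41 to -0.38). SNHG6, called at 0.18, lost it without 786O shControl replicate 2, 786O shControl replicate 3, 786O shBMAL1 replicate 1 or WT8 shControl replicate 2 (log2 0.13 to 0.16), and MIR34AHG, called at -0.87, without WT8 shControl replicate 2, WT8 shControl replicate 3 or WT8 shBMAL1 replicate 1 (log2 -0.86 to -0.58). MIRLET7DHG lost it without 786O shControl replicate 1, 786O shBMAL1 replicate 1, WT8 shControl replicate 3 or WT8 shBMAL1 replicate 1 (log2 -1.30 to -1.19) and MIR3142HG without 786O shControl replicate 1, 786O shBMAL1 replicate 1, 786O shBMAL1 replicate 2, WT8 shControl replicate 3 or WT8 shBMAL1 replicate 2 (log2 -1.14 to -0.85). SNHG3, called at -0.23, lost it without 786O shControl replicate 1, 786O shBMAL1 replicate 2, 786O shBMAL1 replicate 3, WT8 shControl replicate 1, WT8 shControl replicate 3 or WT8 shBMAL1 replicate 1 (log2 -0.20 to -0.14). MIR4435-2HG and SNHG4, called at -0.15 and -0.36, lost theirs without any one of 9 of the libraries (log2 -0.15 to -0.10) and 8 of the libraries (log2 -0.38 to -0.20), respectively, and both also under other low-count filters. SNHG6 and SNHG4 were not called with DESeq2, and SNHG4 not with limma-voom or the replicate block.

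**Figure D4:**
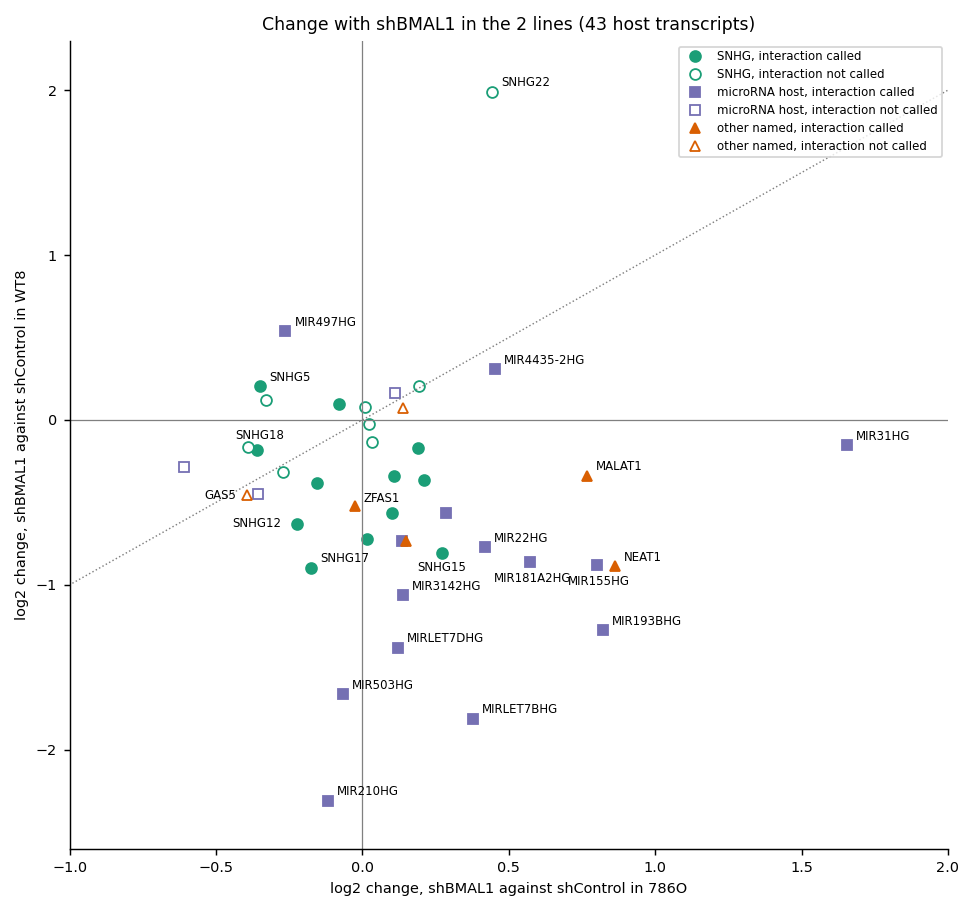
Log2 change with shBMAL1 in 786O (horizontal axis) and in WT8 (vertical axis) of 43 host transcripts, by class, with filled symbols where the interaction with the line was called. The dotted line marks equal changes. Most microRNA hosts lie below it, down to MIR210HG at -2.31 in WT8, while SNHG5 and MIR497HG lie in the upper left. MIR100HG and MIR924HG are left out because of their 0 counts in WT8.

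The mRNAs of proteins that process or bind these RNAs included called rises and falls with shBMAL1 in each of 4 lists. In WT8, those of microRNA processing and silencing mostly rose (69.2% higher, 7.69% lower). The shares called lie beside those of all genes, 69.8% in WT8 (32.9% higher, 36.9% lower) and 48.9% in 786O (24.5% higher, 24.4% lower), and nothing particular to a list is read from its count. Of 18 genes for small nucleolar ribonucleoproteins and their assembly, 10 rose and 4 fell with shBMAL1 in WT8 (77.8% called, median log2 0.096), and 3 rose and 6 fell in 786O (50% called, median 0.053). The medians of all genes were -0.043 and 0.00075. Their largest decreases were in DKC1, the pseudouridine synthase of box H/ACA particles (log2 -0.76, SE 0.042, adjusted p 7.44e-17 in 786O and log2 -0.92, SE 0.042, adjusted p 2.44e-20 in WT8). FBL, the methyltransferase of box C/D particles, rose in WT8 (log2 0.50, SE 0.051, adjusted p 8.90e-11). Of 13 genes of microRNA processing and silencing, 9 rose and 1 fell in WT8 (76.9% called, median 0.31), led by TNRC6C (log2 1.13, SE 0.12, adjusted p 4.97e-10) and AGO1 (log2 0.79, SE 0.10, adjusted p 4.78e-09), and 5 rose and 3 fell in 786O (61.5% called, median 0.086), where AGO2 rose (log2 0.56, SE 0.053, adjusted p 9.45e-11). Nonsense-mediated decay genes numbered 14, of which 6 rose and 3 fell in WT8 (64.3% called, median 0.014), with EIF4A3, a core factor of the exon junction complex, falling by 0.64 on the log2 scale (SE 0.045), and 3 rose and 2 fell in 786O (35.7% called, median -0.0011). Among 15 genes for paraspeckle and nuclear speckle proteins, 7 rose and 4 fell in WT8 (73.3% called, median 0.043) and 3 rose and 5 fell in 786O (53.3% called, median -0.042). PSPC1, a paraspeckle protein that binds NEAT1, was lower with shBMAL1 in both lines (log2 -0.30, SE 0.053, adjusted p 2.01e-05 in 786O and log2 -0.67, SE 0.050, adjusted p 4.31e-14 in WT8) and higher in WT8 than in 786O (log2 1.24, SE 0.052, adjusted p 7.62e-22). The summed level of the 20 proliferation genes lay at 4382 to 4493 CPM in the 786O shControl libraries and 4519 to 4653 CPM in those with shBMAL1. In WT8 it was 953 to 997 CPM with the control shRNA, while shBMAL1 libraries reached 4294 to 4333 CPM. In WT8 they rose by a median of 2.26 with shBMAL1 on the log2 scale, led by MCM5, a subunit of the replicative helicase (log2 3.25, SE 0.050, adjusted p 6.40e-34), while in 786O 6 of them rose and 2 fell. Their part in the changes of the host transcripts was not tested.

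Some host genes start next to a protein-coding gene on the other strand, and 8 tested pairs had RefSeq starts within 1000 bases of each other. Members of a pair often differed. SNHG1 did not pass the test in either line, while SLC3A2, the amino acid transporter subunit whose start lies 224 bases away, had 538, 519 and 500.1 CPM in 786O shControl, 268, 267 and 271 in 786O shBMAL1, 554, 537 and 558 in WT8 shControl, and 297, 277 and 280.2 in WT8 shBMAL1 and fell in both (log2 -0.95, SE 0.042, adjusted p 1.02e-19 in 786O and log2 -0.95, SE 0.042, adjusted p 1.10e-20 in WT8). SNHG18 and its neighbour SEMA5A, 125 bases away, both fell in both lines, SEMA5A further (-1.15 in 786O and -0.58 in WT8, against -0.36 and -0.18 for SNHG18). MIR22HG and WDR81, 313 bases away, both fell in WT8 (-0.77 and -0.63), but in 786O MIR22HG rose by 0.42 and WDR81 was at -0.077, which did not pass. GAS5 fell in both lines while ZBTB37, 665 bases away in a facing arrangement, was at 0.52 in 786O, called higher, and at -0.047 in WT8, not called. SNHG19 fell in WT8 while TRAF7, 424 bases away, rose (-0.72 and 0.17), and SNHG22 rose while ACAA2, 490 bases away, fell (1.99 and -0.97). GLRX5, 178 bases from SNHG10, rose in WT8 (0.38), where SNHG10 was not called (-0.16). MIRLET7DHG fell in WT8 (-1.38), and ZNF169, 13 bases away, was not called in either line. The libraries were stranded, but the use of strand in counting is not stated, so values of overlapping pairs such as GAS5 with ZBTB37, ZFAS1 with ZNFX1, MIR22HG with WDR81 or EPB41L4A-AS1 with EPB41L4A may hold reads of both. Other pairs overlap on the same strand and are uncertain even where strand was used. Among them are SNHG3 with RCC1, SNHG4 with MATR3, SNHG20 with SEC14L1, MIR31HG with IFNA2 and IFNE, and MIR100HG with BLID. SNHG5 also overlaps a protein-coding gene without a symbol on its strand.

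**Figure D5:**
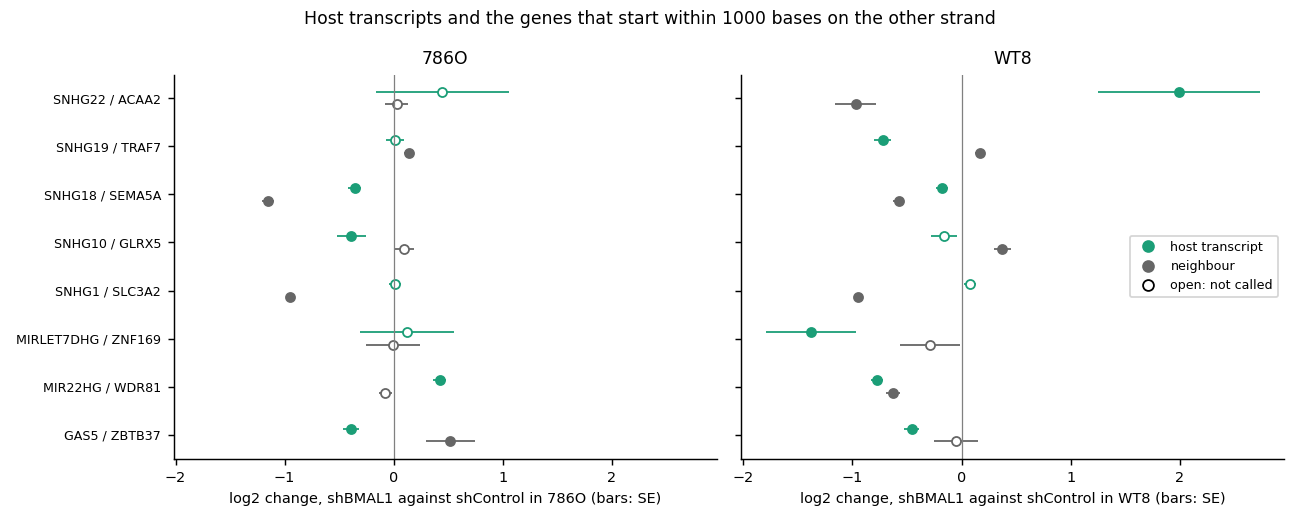
Log2 change with shBMAL1 in 786O (left) and WT8 (right) for 8 host transcripts (green) and the gene that starts within 1000 bases on the other strand (grey), with SE as bars and open points where no change was called. SLC3A2 lies at -0.95 in both lines while SNHG1 lies near 0, and SNHG18 and SEMA5A are both below 0.

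The mRNA libraries held few counts in the rows of the small RNAs themselves. SNORD104, in SNHG25, had the most counts of a small nucleolar RNA row, 1285 over 12 libraries, with 1.05, 2.23 and 1.88 CPM in 786O shControl and 3.34, 3.77 and 3.92 in WT8 shControl, and was higher in WT8 (log2 1.09, SE 0.21, adjusted p 1.72e-05). SNORD78 in GAS5 had 250 counts, SNORA73B in SNHG3 240 and SNORD60 in SNHG19 223. SNORA73B was lower in WT8 with shBMAL1 (log2 -1.16, SE 0.39, adjusted p 0.00857), as was its host, and the MIR210 row, with 87 counts, was lower with its host (log2 -1.82, SE 0.65, adjusted p 0.0138). Whether such counts come from the small RNA or from its host cannot be told apart. The MIR762 row had 2513 counts, and MIR762HG overlaps BCL7C on the opposite strand.

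BMAL1 pairs with CLOCK to bind the E-box CACGTG, and HIF complexes bind the core ACGTG or GCGTG. These letters were searched on both strands from 250 bases before to 50 bases after each RefSeq start. A promoter was listed for 40 of the 46 host genes, all but SNHG6, SNHG9, SNHG15, SNHG25, MIR181A2HG and NEAT1. CACGTG occurred in 1 of the 40 (2.5%), SNHG7, and in 8.77% of 27305 genes with a promoter. ACGTG, which CACGTG contains, occurred in 12 of the 40 (30%) and in 24.9% of all genes, and GCGTG in 23 (57.5%) and 40.6%. The promoters of SNHG7, which holds the E-box, of MIR210HG, with the largest decrease in WT8, and of MIR22HG, with the largest rise between the lines, are shown 5′ to 3′ in the direction of the gene with the matches on either strand in capitals (RefSeq, GRCh38.p14):
SNHG7, chr9:136728135-136728434, minus strand: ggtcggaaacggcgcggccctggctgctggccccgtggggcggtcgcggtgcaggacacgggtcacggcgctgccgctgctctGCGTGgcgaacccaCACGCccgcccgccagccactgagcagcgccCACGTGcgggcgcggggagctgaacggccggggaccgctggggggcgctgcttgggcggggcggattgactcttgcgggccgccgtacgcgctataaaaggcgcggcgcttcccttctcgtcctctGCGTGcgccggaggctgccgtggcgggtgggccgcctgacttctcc
MIR210HG, chr11:568408-568707, minus strand: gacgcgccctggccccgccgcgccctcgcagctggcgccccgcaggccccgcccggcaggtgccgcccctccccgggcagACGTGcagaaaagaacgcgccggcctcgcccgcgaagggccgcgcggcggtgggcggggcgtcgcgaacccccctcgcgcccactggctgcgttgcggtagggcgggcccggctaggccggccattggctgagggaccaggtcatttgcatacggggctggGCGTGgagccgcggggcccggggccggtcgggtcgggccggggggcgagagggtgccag
MIR22HG, chr17:1716161-1716460, minus strand: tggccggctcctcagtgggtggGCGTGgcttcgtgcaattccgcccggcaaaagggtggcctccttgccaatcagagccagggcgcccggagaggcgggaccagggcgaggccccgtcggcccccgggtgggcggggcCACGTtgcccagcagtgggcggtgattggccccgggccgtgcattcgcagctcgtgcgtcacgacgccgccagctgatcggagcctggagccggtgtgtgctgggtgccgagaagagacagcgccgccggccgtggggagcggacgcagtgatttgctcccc
The E-box of SNHG7 begins 122 bases before its start. A match is a description of the letters and not of binding, which was not examined here.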

How the data were processed

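RNA of 12 cultures of 786O and WT8 cells was sequenced as stranded mRNA libraries. The authors aligned and counted the reads and deposited 1 table of expected counts per gene with no normalization, in which 0.028 stands for 0 (47.0% of values) and 5.67% of the other values are not whole. The processing notes list STAR, DESeq2 and hg38, while the study's methods name another aligner and GRCh37, so the build is uncertain. The table holds no coordinates. Gene positions given here are GRCh37 (GENCODE), and sequences are RefSeq GRCh38.p14. Values of 2 (14754) outnumber values of 1 (11117), so both mates of a pair may have been counted. Counts were rounded, with the stand-in set to 0, and 16838 genes passed filterByExpr. Differences were tested with edgeR 4.0.16 (robust quasi-likelihood F test, TMM factors 0.948 to 1.04, R 4.3.3), with all 12 libraries in the fit, 1 mean per group and Benjamini-Hochberg adjustment over all genes, and called at adjusted p under 0.1. Log2 changes carry their SE. Totals of 33182025 to 36477509 counts limit genes of few counts, and the floor of 3 counts a library covers counting error only. The labels call the replicates biological and do not say how cultures were separated, so p-values measure the spread between these cultures. Pairing by replicate number was checked: deviations of same-numbered libraries correlated at -0.0461 to 0.0476 over 18 pairs, so the numbers did not pair them. Replicates differed by more than sampling noise. The scripts were tested on simulated data. Alternatives were DESeq2 1.42.0, limma 3.58.1 (voom), other filters, scalings and thresholds, halved counts, a replicate block and each library left out. The host transcripts, gene lists and tests were chosen with earlier results of these data known. Named host transcripts are all those compared, with full statistics for the 5 largest called rises and falls per comparison among those with a mean of at least 50 counts over the libraries compared, and for 16 genes always given. Neighbours and the leading genes of each list are named too.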

Additional observations from a re-analysis of the deposited data

Results flagged for a closer look

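The response to shBMAL1 differed between the lines by a test of the difference itself for 31 of 45 host transcripts (edgeR quasi-likelihood test, adjusted p under 0.1 over all genes). Each value here is the log2 change in WT8 minus that in 786O. Among microRNA hosts the change was lower in WT8 for MIR210HG (-2.19), MIRLET7BHG (-2.19), MIR193BHG (-2.10), MIR31HG (-1.81), MIR155HG (-1.68), MIR503HG (-1.60), MIRLET7DHG (-1.50), MIR181A2HG (-1.44), MIR3142HG (-1.20), MIR22HG (-1.19), MIR34AHG (-0.87), MIR4458HG (-0.85) and MIR4435-2HG (-0.15). For the nuclear RNAs the differences were -1.75 (NEAT1) and -1.10 (MALAT1). Small nucleolar RNA hosts with a lower change in WT8 were SNHG15 (-1.08), EPB41L4A-AS1 (-0.88), SNHG19 (-0.74), SNHG17 (-0.72), SNHG7 (-0.67), SNHG9 (-0.57), ZFAS1 (-0.50), SNHG11 (-0.44), SNHG12 (-0.41), SNHG4 (-0.36) and SNHG3 (-0.23). The change was higher in WT8 for SNHG6 (0.18), SNHG18 (0.18), SNHG5 (0.56) and MIR497HG (0.80), and for MIR100HG, whose fitted 4.16 depends on the prior count because all 3 WT8 shControl libraries had 0 counts. Of all genes, 56% were called in this test, 28.6% with a lower and 27.4% with a higher change in WT8. Groups of 3 libraries are too small to judge a single library as far from the others.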

How the results depend on the processing

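Of 123 called results for host transcripts, 96 kept direction and call under every alternative fit (the 2 stricter thresholds aside), and 27 lost the call under 1 or more. Over 2545 alternative values of called results, 2437 kept the call, 108 lost it (87 of them with 1 of 12 libraries left out) and 0 reversed. With a fold change over 1.5 also required, 6 host transcripts were called in 786O and 18 in WT8 with shBMAL1, since smaller changes no longer count. The number called ranged from 16 to 21 in 786O, 30 to 35 in WT8, 37 to 39 between the lines and 25 to 31 for the interaction as each library was left out. With DESeq2 it was 17, 34, 38 and 30 in the same order. The replicate block, entered although the numbers did not pair the libraries, gave 19, 34, 38 and 30, with 2 calls lost and 0 gained. The fit of only the groups compared could not be run for the interaction. Some uncalled values near 0 changed sign as libraries were left out: SNHG1 in 786O ranged from -0.055 to 0.045, ZFAS1 in 786O from -0.078 to 0.017, SNHG12 between the lines from -0.011 to 0.10, and the interactions of DANCR from -0.14 to 0.028, of GAS5 from -0.14 to 0.0060 and of MIR17HG from -0.24 to 0.0090 on the log2 scale. The cause was not tested. Calls of transcripts with few counts, such as SNHG22, SNHG25 and MIR34AHG, rest on few counts, which depth limits.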

Other observations

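MIR600HG, a host within STRBP on the same strand, was not tested. It had 62 counts (1.80 CPM) in WT8 shControl replicate 2 and 0 in the other 11 libraries, so its total rests on 1 library. Of the other 31 matching rows that were not compared, 17 had 0 counts throughout, and the rest had under 50 counts in total.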
